A study of Mus musculus with 12 samples.

Results

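Bone marrow eosinophils that lacked the autophagy gene Atg5 were compared with control bone marrow eosinophils by RNA sequencing, and all genes with enough counts to be tested were considered rather than only those with the largest differences. The comparison used 6 of the 12 libraries of the series. It set 3 libraries of Atg5 flox/flox eoCre Il5tg mice against 3 libraries of eoCre Il5tg mice. Both groups carried eoCre, a Cre recombinase inserted at the eosinophil peroxidase gene Epx and therefore active in the eosinophil lineage, and both carried an Il5 transgene driven by the T cell promoter of Cd3d, which floods the animals with eosinophils. The control mice had no floxed Atg5, so that the deletion and any DNA that travels with the floxed allele cannot be told apart. Marrow was flushed from femurs and tibias, and cells that bound any of a set of antibodies, those against CD8 alpha, CD90.2 and Ly6G among them, were removed with magnetic beads, which leaves eosinophils by negative selection. Age and sex of the mice are not given in the labels. Of the 53801 genes counted, 24522 had at least 1 count in these libraries and 13781 passed the expression filter and were tested.

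Macroautophagy encloses cytoplasm, organelles and protein aggregates in a membrane that closes into an autophagosome and fuses with the lysosome. The ATG5 protein is joined to ATG12, and the conjugate, bound to ATG16L1, attaches members of the LC3 and GABARAP family to the lipid phosphatidylethanolamine of the growing membrane. Eosinophils mature in the marrow from dividing precursors, fill with granules of peroxidase, major basic protein and ribonucleases, and depend on interleukin-5, while red cell precursors, platelet precursors and neutrophils share the same space.

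Each library held between 24095367 and 30270166 reads counted on genes. Levels are given as CPM, the counts of a gene per 1000000 reads on genes after library sizes were scaled by the TMM method. The 10 eosinophil markers examined took between 8.04% and 10.2% of all counts, and the eosinophil defining genes Epx and Prg2 were among them. T cell and natural killer cell markers took at most 0.0133% and B cell markers at most 0.0409% of counts, and the T cell gene Cd3e and the mast cell gene Tpsb2 had 0 counts in every library. Neutrophil markers took from 2.40% to 3.44%, with ranges that overlapped between the genotypes. The red cell markers took 0.425%, 0.746% and 0.217% of counts in knockout replicates 1, 2 and 3, and 0.147%, 0.261% and 0.212% in control replicates 1, 2 and 3. Knockout replicates 1 and 2 thus held the most red cell RNA. Of the 13 red cell markers tested, 13 had positive log2 fold changes (median 1.32), 12 of them at an unadjusted p under 0.05 (4.36% of all tested genes were higher at that threshold), and 7 were higher without overlap between the groups (7.13% of all tested genes). The count of 12 was 7 without knockout replicate 2, where the median was 0.67, and 10 to 13 without each of the others. The other marker lists had medians between -0.05 (neutrophil) and 0.15 (monocyte and macrophage), apart from the platelet and progenitor lists described with the cell cycle genes. In bulk RNA, fewer cells of a type and less RNA per cell cannot be told apart.

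Atg5 itself, at chr10:44268358-44364291 in the GRCm38 coordinates of the count table, measured 33.4, 33.8 and 37.1 CPM in the knockout libraries and 45.5, 51.1 and 44.8 CPM in the control libraries. All 3 knockout libraries lay under all 3 control libraries. On average the knockout libraries held 34.7 ± 2.04 CPM, against 47.1 ± 3.49 CPM in the controls (SD, n = 3 each). The log2 fold change was -0.44 ± 0.11 (SE), with an unadjusted p of 0.00146 and an adjusted p of 0.157 in edgeR's quasi-likelihood test, so that Atg5 was not among the called genes. DESeq2 gave it an adjusted p of 0.0300, the lowest among the alternative fits, which reached 1. The floxed allele loses part of the gene while the count covers all of its exons, so the count does not by itself check the genotype. In blood eosinophils the log2 fold change of Atg5 was -0.01.

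At an adjusted p under 0.05, 48 of the 13781 tested genes differed between knockout and control marrow, which is 0.348% of them. Of these, 20 were higher (0.145%) and 28 were lower (0.203%) in the knockout. A log2 fold change threshold of 2, as the study applied, kept 13 of the 48, and 35 lay within it. Those 35 moderate changes comprised 11 increases and 24 decreases. Among the 28 that were protein-coding, 6 rose and 22 fell, whereas 5 of the 6 pseudogenes rose. For all 35 moderate genes the 3 knockout libraries and the 3 control libraries did not overlap, while over all tested genes 7.13% were without overlap on the higher side and 7.06% on the lower side. The 35 were chosen by p from the same libraries, so their separation was largely set by that choice. The median log2 fold change over all tested genes was 0.0029, with quartiles at -0.14 and 0.15. Without adjustment, 601 genes were higher (4.36%) and 732 were lower (5.31%) at p under 0.05, and 1078 of these 1333 had a log2 fold change within 1.

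**Figure D1:**
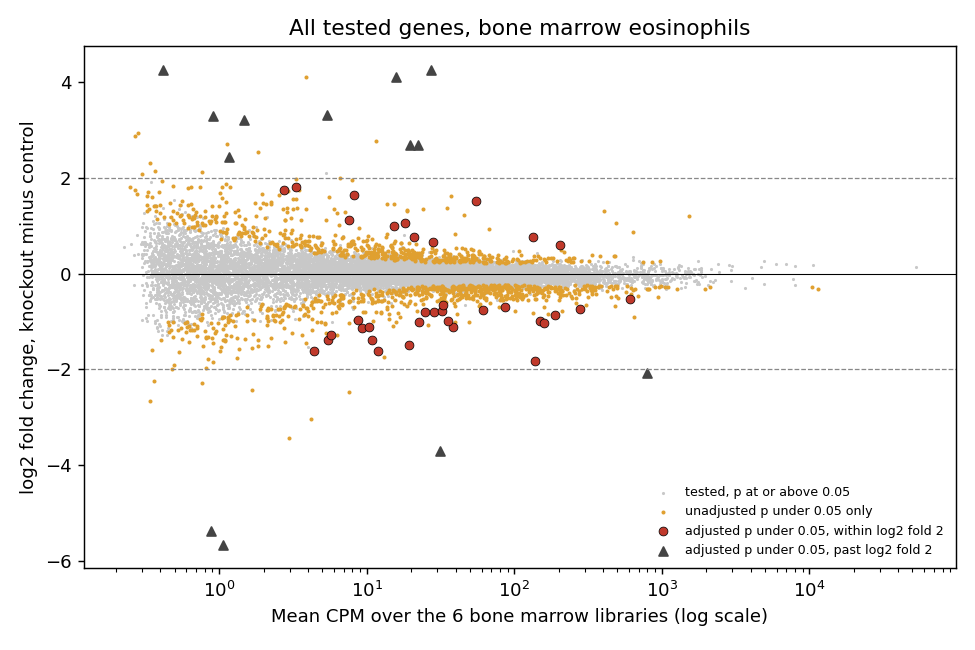
Log2 fold change of knockout over control bone marrow eosinophils (vertical axis) against the mean CPM over the 6 libraries (horizontal axis, log scale) for the 13781 tested genes, with the called genes within and beyond a log2 fold change of 2 marked apart. The 35 moderate genes lie on both sides of 0, with 24 of them under it.

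The moderate change with the lowest p was in Wdfy1, whose protein binds phosphatidylinositol 3-phosphate on endosomes through a FYVE domain. Wdfy1 (chr1:79702262-79776143) measured 8.64, 10.7 and 11.2 CPM in the knockout libraries and 26.3, 31.3 and 28.4 CPM in the controls. Every knockout library was well under every control library, and Wdfy1 fell by 1.49 ± 0.14 (SE) on the log2 scale (adjusted p = 0.000376). A second gene for a protein with a FYVE domain, the guanine nucleotide exchange factor Fgd6 (chr10:94036001-94145339), measured 6.01, 4.77 and 6.96 CPM against 23.0, 14.4 and 16.8 CPM. The groups again did not overlap, and Fgd6 fell by 1.62 ± 0.20 (adjusted p = 0.00376).

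Called enzyme genes also went in both directions, with Hal, Alas2 and Gdpd3 among the increases. Of the decreases, Car4, a membrane-anchored carbonic anhydrase, measured 50.6, 50.2 and 83.5 CPM in the knockout and 234, 230.4 and 183 CPM in the control libraries. Knockout replicate 3 was the highest of its group and still under the lowest control, and Car4 fell by 1.81 ± 0.19 (adjusted p = 0.000813). Akr1c13, an aldo-keto reductase, measured 22.4, 22.4 and 28.7 CPM against 54.9, 55.8 and 47.3 CPM and fell by 1.10 ± 0.13 (adjusted p = 0.00232). Abca1, which exports cholesterol from cells, measured 4.30, 6.95 and 6.76 CPM against 12.1, 13.9 and 20.9 CPM and fell by 1.38 ± 0.23 (adjusted p = 0.0265). Its relative Abcg1, also a sterol exporter and named here after its values were seen, measured 61.1, 53.5 and 48.2 CPM against 95.2, 78.6 and 75.1 CPM and did not pass the threshold (log2 fold change -0.61, adjusted p = 0.0774). Among enzymes expressed at high levels, Fut8, which adds the core fucose of N-glycans, fell by 0.73 ± 0.13 (adjusted p = 0.0317). Lta4h, which makes leukotriene B4, measured 513, 484 and 487 CPM against 695, 744 and 709.9 CPM and fell by 0.53 ± 0.10 (adjusted p = 0.0385), the smallest of the called log2 fold changes. Pde3b, a phosphodiesterase of cyclic nucleotides, fell by 0.69 (adjusted p = 0.0236).

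Called receptor genes went in both directions, with Pira1 among the increases. Of the decreases, Adgrg6, an adhesion G protein-coupled receptor, measured 19.7, 19.2 and 23.8 CPM in the knockout and 37.0, 33.3 and 38.0 CPM in the controls. The lowest control was clear of the highest knockout library, and Adgrg6 fell by 0.79 ± 0.12 (adjusted p = 0.0172). Klra2, a lectin-like receptor of the Ly49 family, fell by 0.75 (adjusted p = 0.0204), and Tarm1, an activating immunoglobulin-like receptor, fell by 0.79 (adjusted p = 0.0265). Pira13, of the paired immunoglobulin-like receptors, measured 13.6, 15.02 and 16.1 CPM against 32.2, 27.8 and 30.1 CPM and fell by 1.01 ± 0.12 (adjusted p = 0.00316). The Pir genes are close paralogs whose reads the counting could divide among them, and their values are uncertain for that reason.

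Regulators of the cytoskeleton and of signalling were also among the called genes. Arl4c, a small GTPase of the ARF-like family, measured 118, 77.9 and 104 CPM in the knockout and 178, 222 and 192 CPM in the controls and fell by 0.98 ± 0.15 (adjusted p = 0.0145). Enah, which promotes the growth of actin filaments, measured 132, 106 and 164 CPM against 273, 231 and 227 CPM and fell by 0.86 ± 0.15 (adjusted p = 0.0265). In both genes all controls were above all knockout libraries, with knockout replicate 2 the lowest. Elk3, a transcription factor of the ETS family, measured 22.6, 23.3 and 25.1 CPM against 35.7, 57.2 and 48.2 CPM and fell by 0.99 ± 0.15 (adjusted p = 0.0177). Armc3, a protein with armadillo repeats, measured 5.64, 5.28 and 6.44 CPM against 10.6, 15.5 and 12.1 CPM and fell by 1.14 ± 0.18 (adjusted p = 0.020004). The knockout values of these last genes were close together and the controls more spread. Cdk5r1, an activator of the kinase CDK5, fell by 0.66 (adjusted p = 0.0302), and the secreted ligand Wnt11 fell by 1.27 (adjusted p = 0.0296). The remaining decreases were in Aifm3, a relative of the apoptosis-inducing factor (-1.11, adjusted p = 0.0265), in the long noncoding RNA 1700016F12Rik (-0.96, adjusted p = 0.0347) and in the pseudogene C920009B18Rik (-1.38, adjusted p = 0.00516).

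Subunits of mitochondrial complex I gave a pair of decreases. Ndufa12 measured 19.03, 18.97 and 15.9 CPM in the knockout and 28.5, 35.9 and 29.6 CPM in the controls, and fell by 0.80 (adjusted p = 0.0236). Its processed pseudogene Ndufa12-ps went the other way, with 27.3, 23.2 and 23.0 CPM against 10.99, 12.5 and 11.8 CPM, and rose by 1.06 (adjusted p = 0.00347). Both sets of libraries were without overlap, and because reads of a gene and its processed copy can be hard to separate, both values are uncertain. Ndufa3 measured 121, 83.5 and 110.2 CPM against 170.3, 282 and 189 CPM and fell by 1.03 (adjusted p = 0.0358). Over the 75 tested nuclear genes of the respiratory chain and ATP synthase, these 2 were the only ones called, against 0.203% of all tested genes called lower. The third with an unadjusted p under 0.05 was Ndufa1 (-0.31), none was higher at that threshold, and the list's median was -0.07. These 3 are 4.0% of the list, under the 5.31% of all tested genes in the same fit. The lower count was 13 without control replicate 1 and 13 without knockout replicate 1, and 2 or 3 without each of the others.

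Of the 11 moderate increases, 6 were in protein-coding genes. Dynlt1b, a light chain of the dynein motor, measured 5.90, 4.43 and 5.07 CPM in the knockout and 1.34, 1.67 and 1.39 CPM in the controls and rose by 1.81 ± 0.24 (adjusted p = 0.00523). Hal, the histidine ammonia-lyase that begins histidine breakdown, measured 10.6, 9.74 and 10.8 CPM against 4.58, 5.30 and 4.47 CPM and rose by 1.12 ± 0.16 (adjusted p = 0.0123). In both genes the libraries of a group were close together and far from those of the other. Ifi27l2a, which interferon induces, measured 24.1, 29.3 and 26.2 CPM against 15.1, 14.8 and 16.95 CPM and rose by 0.76 (adjusted p = 0.0238). Cep128, a protein of the centriole, rose by 0.66 (adjusted p = 0.0265), and the predicted gene Gm8113 rose by 0.61 (adjusted p = 0.0265). Alas2, the first enzyme of haem synthesis in red cells and one of the red cell markers, measured 72.5, 126 and 46.1 CPM against 25.2, 26.2 and 34.3 CPM and rose by 1.51 (adjusted p = 0.0412). It was highest in knockout replicates 1 and 2, the libraries with the most red cell RNA. The other pseudogenes that rose were Gm10167 (1.65, adjusted p = 0.00104), Gm13092 (1.76, adjusted p = 0.0238), Gm5905 (0.78, adjusted p = 0.0295) and Pira2-ps1 (1.001, adjusted p = 0.02004).

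**Figure D2:**
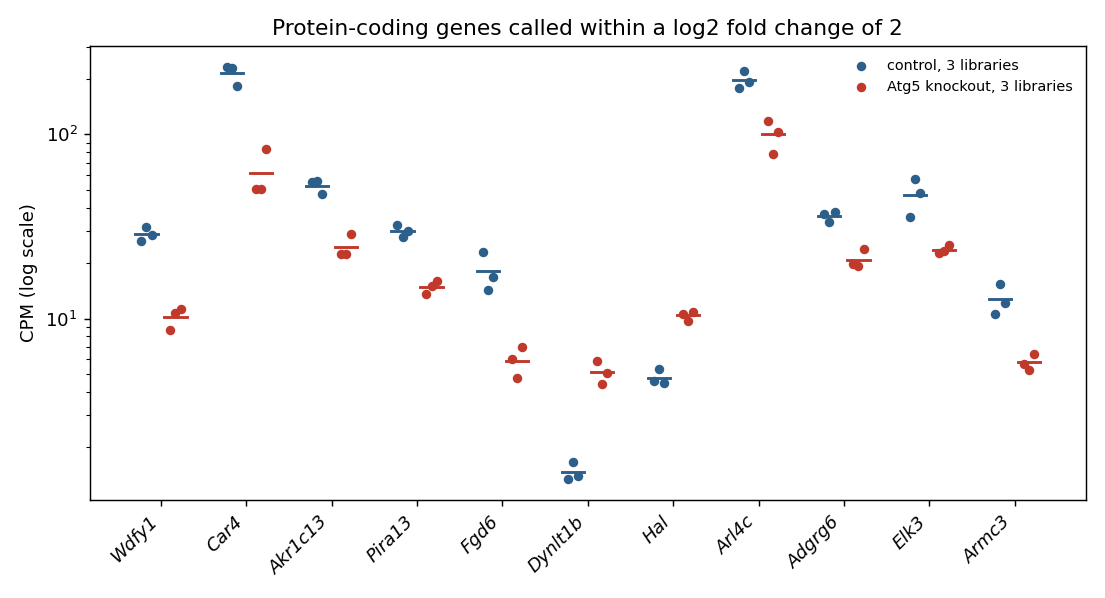
Level in each library, in CPM on a log axis, of 11 of the 12 protein-coding genes with the lowest p among the called genes within a log2 fold change of 2, with each point standing for a library of the knockout or control group. In every gene shown the 3 knockout libraries are separate from the 3 control libraries, and only Dynlt1b and Hal are higher in the knockout.

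When each library was left out in turn, 9 of the 35 moderate genes stayed under an adjusted p of 0.05 in all 6 fits. These were the decreases in Wdfy1, Car4, Akr1c13, Pira13, Fgd6 and C920009B18Rik and the increases in Gm10167, Ndufa12-ps and Dynlt1b. Without knockout replicates 1 and 2 together, which leaves a single knockout library assumed to vary like the others, 0 of the 35 passed with edgeR, where 138 tested genes were higher and 141 lower at an unadjusted p under 0.05, and no called gene changed sign. The log2 fold changes in that fit were -1.35 for Wdfy1, -0.90 for Pira13 and 1.56 for Gm10167, against -1.49, -1.01 and 1.65 with all 6 libraries. Moderate genes that moved further than these included Alas2 (1.51 to 0.69), Enah (-0.86 to -0.57), Aifm3 (-1.11 to -0.79) and Car4 (-1.81 to -1.37).

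Blood eosinophils of the same genotypes gave a second reading of the 35 genes. The sources do not say whether marrow and blood libraries with the same number came from the same mouse. All 35 were tested in blood, and 29 had the same sign there. At an unadjusted p under 0.05, 12 had the same sign in blood, where 2.58% of all 13460 tested genes passed in either direction. The log2 fold change in blood was -1.21 for Wdfy1, -1.05 for Fgd6, -1.002 for Pira13 and 1.86 for Hal. It was nearer 0 for Arl4c (-0.11), Enah (-0.10) and Ndufa12 (0.04). Alas2 was the single gene with the opposite sign at that threshold (-4.35 in blood), where control replicate 1 held the most red cell RNA. A test of the difference between the tissues called 0 of 14712 genes with edgeR, the lowest adjusted p being 0.406, with 740 genes (5.03%) at an unadjusted p under 0.05, and DESeq2 called 14. Of the 35 moderate genes, 9 were at an unadjusted p under 0.05 in that test, namely Arl4c, Armc3, Klra2, Pde3b, Ndufa12, Cep128, Gm8113, Wnt11 and Alas2. The 35 were chosen by their marrow difference, which is a part of that test. Their count therefore does not measure how particular the changes are to marrow. The other genes with opposite signs were Gm8113 (0.61 in marrow and -0.60 in blood), Cep128 (0.66 and -0.41), Klra2 (-0.75 and 0.23), Pde3b (-0.69 and 0.17) and Ndufa12.

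The 13 genes past a log2 fold change of 2 comprised 9 increases and 4 decreases. The increases included the lysophospholipase D gene Gdpd3 (4.27), the serpin gene Serpina9 (3.31), the paired immunoglobulin-like receptor gene Pira1 (2.69), and the pseudogenes Gm15931 (2.70), Tdg-ps2 (3.33), Gm10155 (3.21) and Gm4742 (2.44). The decreases were in Serpina11 (-3.71), Retnla (-2.08), Eps8l1 and Gm47917. Eps8l1 had 3 counts over the knockout and 177 over the control libraries, and Gm47917 had 3 and 137. Retnla, which encodes the secreted resistin-like molecule alpha, measured 351, 129 and 434 CPM against 886, 1714 and 1264 CPM (adjusted p = 0.0265). Some of these calls did not hold when 1 library was left out. Retnla, Serpina9 and Gm4742 were not called without control replicate 3 or without knockout replicate 1. Gm4742 was also not called without knockout replicate 2, Gm47917 without control replicate 3 and Eps8l1 without knockout replicate 1.

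The called genes lay close to each other in the genome more than once. With a distance of at most 1 Mb between neighbours, 19 of the 48 fell into 5 runs. On chr10, within chr10:93247414-94221443, 5 of the 13 tested genes were called (38.5%), namely Elk3, Lta4h, Fgd6 and Ndufa12, which fell, and Hal, which rose. The histidine enzyme gene Amdhd1, a neighbour of Hal named after its values were seen, had 50 counts over the knockout and 11 over the control libraries (log2 fold change 2.16, adjusted p = 0.277). On chr7, within chr7:3486500-4480487, 7 of 25 tested genes were called (28.0%), with Tarm1, Ndufa3, Pira13 and Eps8l1 lower and Pira1, Pira2-ps1 and Gm15931 higher. On chr12, Ifi27l2a, Serpina11 and Serpina9 were 3 of the 4 tested genes within chr12:103442167-104013755. A further run held Gm10155 and Gdpd3 on chr7. By chromosome, chr12 had 8 called genes (1.62% of those tested), chr10 had 9 (1.34%) and chr7 had 12 (1.12%), and no other chromosome had more than 3. Atg5 is on chr10, and 2 of the 67 tested genes within 10 Mb of it were called, against 0.348% of all tested genes. The run on that chromosome begins 49.0 Mb away at Elk3. Whether the runs follow DNA that came with the floxed line was not tested.

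**Figure D3:**
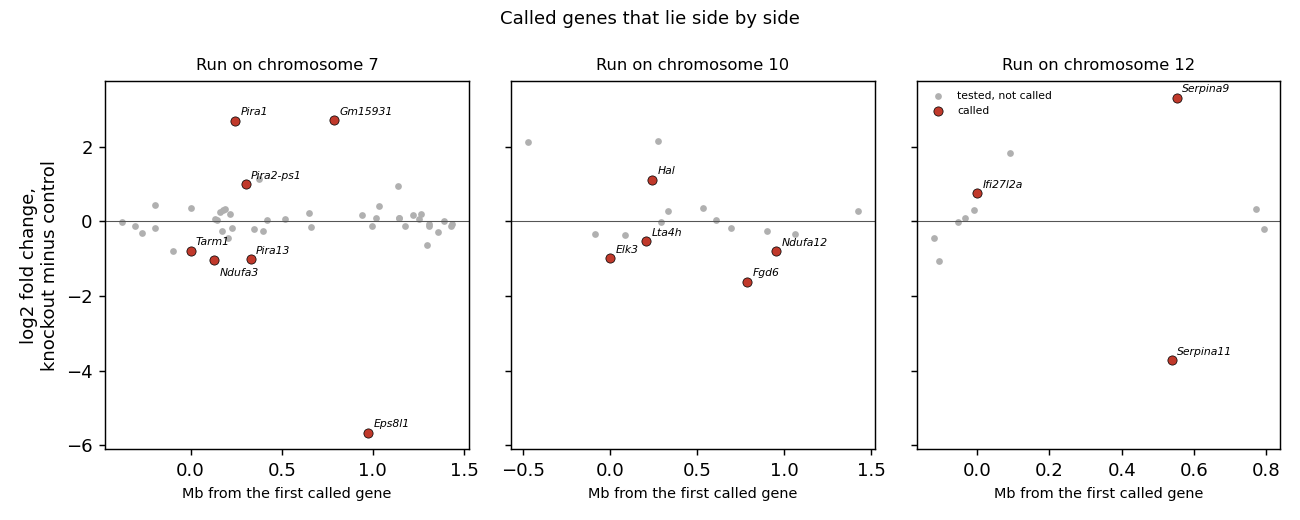
Log2 fold change of knockout over control (vertical axis) of the tested genes in and beside the runs on chr7, chr10 and chr12, plotted by distance from the first called gene in Mb, with called genes marked and named. In the chr10 run Hal is above 0 and the other called genes are under it.

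Of the 42 tested genes of the autophagy machinery, from the ULK complex to the LC3 and GABARAP family, 0 were called by edgeR, 0 were higher and 2 were lower at an unadjusted p under 0.05, namely Atg5 and the fusion protein gene Vamp8 (-0.35), against 4.36% and 5.31% of all tested genes. Without control replicate 1, 4 were higher and 4 lower, and with any other library left out 0 were higher and 1 or 2 lower. The median log2 fold change was 0.04 and 24 of the 42 were above 0. The LC3 gene Map1lc3b measured 163, 149 and 172 CPM against 182, 186 and 167 CPM, and the groups overlapped. The autophagy receptor gene Sqstm1, whose protein is itself degraded by autophagy, measured 275, 239 and 278 CPM against 261, 266 and 241 CPM (log2 fold change 0.04). Among the 22 autophagy receptors the median was 0.00, with 1 higher (4.55%) and 3 lower (13.6%) at an unadjusted p under 0.05, against the same shares of all genes. Their lower count lay between 1 and 3 when 1 library was left out. Those with the lowest p were the receptors of the endoplasmic reticulum Sec62 (-0.44, adjusted p = 0.157) and Tex264 (-0.29, adjusted p = 0.448) and the aggregate receptor Optn (0.59, adjusted p = 0.353).

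The lysosomal lists were split in direction, and 0 members were called by edgeR. Among 48 enzymes of the lysosome, 3 were higher and 4 were lower at an unadjusted p under 0.05, against 4.36% and 5.31% of all tested genes. The median was 0.05, and 0 were lower without knockout replicate 2. The protease gene Lgmn measured 20.1, 25.2 and 21.7 CPM against 16.6, 15.3 and 15.3 CPM (log2 fold change 0.50, adjusted p = 0.177). The galactosylceramidase gene Galc (0.45) and the acid lipase gene Lipa (0.39) also had values above the controls without overlap. In contrast, the protease gene Ctsd measured 709.8, 609 and 789.6 CPM against 834, 967 and 839 CPM (log2 fold change -0.32, adjusted p = 0.409). Among 44 genes of the lysosomal membrane and the proton pump, 0 were higher and 5 were lower, with a median of -0.04, and 2 to 8 were lower when 1 library was left out. Those with the lowest p were the pump subunit Atp6v1d (-0.45, adjusted p = 0.157), the folliculin partner Fnip1 (-0.30) and Laptm4a (-0.27).

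The letters CACGTG, the core of the element that the lysosomal regulator TFEB reads, were looked for on both strands in RefSeq promoter windows of GRCm38.p6, which run from 250 bases before to 50 bases after a gene's start. Each gene was counted once, as a match if any of its windows held the letters. Shares of windows here and below are therefore shares of genes with a window. Of 27025 genes with a window, 8.09% held the letters, and of the tested genes with a window 11.7%. The letters stood in 33.3% of the windows of lysosomal enzymes (13 of 39), in 31.4% of those of the lysosomal membrane list (11 of 35), in 17.6% of those of the autophagy machinery (6 of 34) and in 1 of 26 windows of called genes. Lists without a link to the lysosome had such shares as well, with 32.4% for ribosome biogenesis (11 of 34), 26.9% for immediate early genes (7 of 26), 21.2% for purine genes (7 of 33) and 20.8% for cholesterol genes (5 of 24). Stretches from genes with and without higher values are shown because the letters stood in both, with the match in capitals and each stretch read 5′ to 3′ on the gene's strand. They are Atg5 (chr10:44268305-44268338, plus strand), Lgmn (chr12:102439116-102439161, minus strand), Ctsd (chr7:142387900-142387945, minus strand) and Fnip1 (chr11:54438084-54438129, plus strand).
Atg5: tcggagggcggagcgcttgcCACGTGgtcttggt
Lgmn: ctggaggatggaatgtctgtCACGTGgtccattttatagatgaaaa
Ctsd: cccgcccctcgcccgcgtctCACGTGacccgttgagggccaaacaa
Fnip1: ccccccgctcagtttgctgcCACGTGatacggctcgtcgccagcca

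Genes of the cell cycle and DNA replication had values slightly above the controls as a group. All 60 tested members had log2 fold changes above 0, from 0.02 to 0.49, with a median of 0.23. At an unadjusted p under 0.05, 26 were higher and 0 were lower, against 4.36% of all tested genes on the higher side, and 20 were higher without overlap, against 7.13% of all tested genes. That count of 26 was 3 without knockout replicate 2, 12 without knockout replicate 1, 7 without control replicate 3, 9 without control replicate 2 and 0 with all 12 libraries in the fit, while the median lay between 0.18 and 0.27 when 1 library was left out. At an adjusted p under 0.05, 0 were called by edgeR, 0 by DESeq2 and 0 by limma-voom. Cenpe, a kinesin of the kinetochore, measured 65.4, 70.7 and 63.9 CPM against 58.4, 40.0 and 46.7 CPM (log2 fold change 0.46, adjusted p = 0.244). The spindle checkpoint kinase gene Bub1b (0.35) and the DNA polymerase gene Pole (0.40) followed by p. Mki67, the marker of dividing cells, measured 547, 584 and 494 CPM against 488, 346 and 413 CPM (0.38, adjusted p = 0.363), with knockout replicate 3 close to control replicate 1.

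The level of a list in a library was taken as the median over its members of the log2 CPM after each gene's mean over the 6 libraries was subtracted. For the cell cycle list it was 0.14, 0.22 and -0.03 in the knockout and -0.03, -0.14 and -0.14 in the control libraries. The red cell list had its highest value in knockout replicate 2 as well (1.53), with 0.26 and -0.01 in the other knockout libraries and -0.98, -0.21 and -0.41 in the controls. No gene was in both lists. Without knockout replicates 1 and 2 the cell cycle median was 0.09, 45 of the 60 were above 0 and 0 passed an unadjusted p under 0.05. The stem and progenitor markers had a median of 0.25, with 3 of 9 higher at an unadjusted p under 0.05 (Kit, Hlf and Sox4), and the platelet markers a median of 0.61 with 2 of 11 higher (Ppbp and Gp1bb), against 4.36% of all tested genes. With 1 library left out, these higher counts lay between 1 and 3 for the progenitor and between 1 and 4 for the platelet markers. The part of red cell precursors and other progenitors in the cell cycle values was not tested. In blood the median of the cell cycle list was -0.16, with 18 of 59 above 0, and without blood control replicate 1 it was 0.00084, with 30 of 59 above 0.

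**Figure D4:**
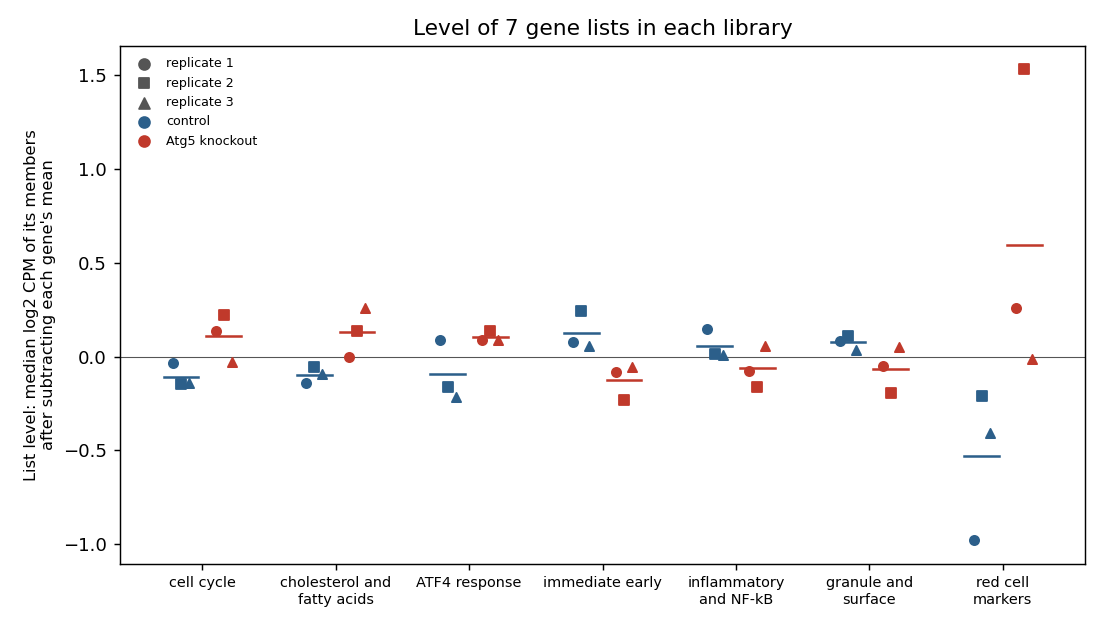
Level of 6 gene lists and the red cell markers in each library, as the median log2 CPM of the members after subtraction of each gene's mean. Symbols stand for libraries and lines for the group means. Knockout replicate 2 is the highest library in both the cell cycle list (0.22) and the red cell list (1.53), whereas the cholesterol list is highest in knockout replicate 3 (0.26).

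Genes of cholesterol and fatty acid synthesis, which the SREBP transcription factors control, had a median log2 fold change of 0.27. Of 34 tested, 31 were above 0, and 14 were higher and 0 lower at an unadjusted p under 0.05, against 4.36% and 5.31% of all tested genes. The higher count was 6 without knockout replicate 3, 9 without knockout replicate 2 and 8 without control replicate 3, and 13 to 16 without each of the others. Sqle, the squalene epoxidase of sterol synthesis, measured 48.9, 52.1 and 55.7 CPM in the knockout and 32.7, 35.8 and 38.8 CPM in the controls. The groups did not overlap, and the log2 fold change was 0.55 ± 0.11 (adjusted p = 0.0684 in edgeR and 0.00388 in DESeq2, with a range of 0.00257 to 1 over the alternative fits). Srebf2, the regulator of sterol synthesis, measured 232, 249 and 275 CPM against 204, 169 and 182 CPM (0.45, adjusted p = 0.157), and the fatty acid desaturase gene Fads2 had 0.69 (adjusted p = 0.179). Not every member followed, since Hmgcs1 (0.13) and Insig1 (0.02) overlapped between the groups. The list's level was -0.0011, 0.14 and 0.26 in the knockout and -0.14, -0.06 and -0.10 in the controls. Its order differed from that of the red cell list among the knockout libraries and was the same among the controls. In both lists all knockout libraries were above all controls, and the part of red cell RNA in the cholesterol values was not tested. Without knockout replicates 1 and 2, which leaves the knockout library with the highest level, the median was 0.39 with 11 higher, and without knockout replicate 3 it was 0.23. The sterol exporters Abca1, which fell, and Abcg1 had the opposite sign. In blood the median of the list was 0.15, and 0.21 without blood control replicate 1.

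Targets of ATF4, the transcription factor of the response to amino acid shortage and stress, had a median of 0.20, with 30 of 35 above 0, 9 higher and 1 lower at an unadjusted p under 0.05, against 4.36% and 5.31% of all tested genes. The higher count was 20 without control replicate 1, 5 without control replicate 2 or knockout replicate 1, and 3 without control replicate 3 or knockout replicate 2. Ddit4, an inhibitor of mTORC1, measured 56.1, 100.4 and 109.8 CPM against 47.3, 39.5 and 52.5 CPM (log2 fold change 0.93, adjusted p = 0.104 in edgeR and 0.000699 in DESeq2, with a range of 3.71e-11 to 1 over the alternative fits). Ppp1r15a, the phosphatase subunit that reverses the block of translation, had 0.65 (adjusted p = 0.244), and Atf4 itself measured 461, 439.8 and 381 CPM against 347, 348 and 299.7 CPM (0.37, adjusted p = 0.276). The member with a lower value was Cebpb (-0.52). The list's level was 0.09, 0.14 and 0.09 in the knockout libraries, but control replicate 1 also had 0.09, with -0.16 and -0.21 in the other controls, so that the groups met at that library. Without it the median was 0.36, and without control replicate 2 it was 0.12. The median was 0.18 without knockout replicates 1 and 2, and in blood it was -6.6e-05.

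The letters TGATGNAA, the form of the element that ATF4 shares with CEBP proteins, stood in 4.51% of all promoter windows and in 2.85% of those of tested genes. They stood in 7 of 25 windows of the ATF4 list (28.0%). CCAAT, read by the factor NF-Y, stood in 41.1% of all windows and in 43.5% of those of tested genes. It stood in 34 of 48 windows of the cell cycle list (70.8%) and in 20 of 24 of the cholesterol list (83.3%). It also stood in 27 of 35 of the unfolded protein response list (77.1%) and in 16 of 25 of the ATF4 list. TTTGAA, the cell cycle homology element of genes that are silenced outside division, stood in 20.2% of all windows and in 14.7% of those of tested genes. It stood in 20 of 48 windows of the cell cycle list (41.7%) and in 11 of 30 of the cell death list (36.7%). The letters CCAAT and TTTGAA are short and matched on both strands. The sterol element form TCACNCCAC stood in 1.44% of all windows, in 1.36% of those of tested genes and in 1 of 24 of the cholesterol list. These elements were added after the list values were seen. Stretches of some, but not all, of the members with a match follow, so that the elements can be read in place. They are Chac1 (chr2:119351029-119351076, plus strand, TGATGNAA on the other strand), Asns (chr6:7693210-7693252, minus strand), Mki67 (chr7:135716470-135716515, minus strand, with another TTTGAA left in lower case), Top2a (chr11:99024343-99024388, minus strand) and Srebf2 (chr15:82147114-82147158, plus strand, CCAAT on the other strand).
Chac1: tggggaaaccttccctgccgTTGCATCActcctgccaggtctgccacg
Asns: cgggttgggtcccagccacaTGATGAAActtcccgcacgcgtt
Mki67: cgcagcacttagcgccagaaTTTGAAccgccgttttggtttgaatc
Top2a: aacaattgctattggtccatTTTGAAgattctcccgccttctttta
Srebf2: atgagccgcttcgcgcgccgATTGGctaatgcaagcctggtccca

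In Chac1, a glutathione-degrading enzyme, the log2 fold change was 0.84 (adjusted p = 0.401), and in Asns, the asparagine synthetase, it was 0.40 (adjusted p = 0.566), with overlap between the groups in both. A match describes the letters in the window and not a site of binding.

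Immediate early genes, which encode transcription factors and phosphatases switched on within minutes of activation, had a median of -0.24, with 0 higher and 8 lower of 30 tested at an unadjusted p under 0.05, against 4.36% and 5.31% of all tested genes, and 5 above 0. The lower count lay between 6 and 12 when 1 library was left out, and the median was -0.15 without control replicate 2. The RNA-destabilising factor gene Zfp36l1 measured 1.002, 1.33 and 1.49 CPM against 2.84, 3.04 and 3.77 CPM (log2 fold change -1.34, adjusted p = 0.0774). The ERK phosphatase gene Dusp6 measured 74.7, 57.9 and 71.1 CPM against 105, 98.0 and 95.7 CPM (-0.55, adjusted p = 0.0814), and Egr1 measured 7.20, 7.70 and 8.17 CPM against 12.8, 11.1 and 10.03 CPM (-0.56, adjusted p = 0.229). In each of these all knockout libraries were under all controls. The classical members Fos (0.09) and Jun (-0.03) overlapped between the groups. The median was -0.12 without knockout replicates 1 and 2 and 0.36 in blood.

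Cytokines, chemokines and feedback inhibitors induced through NF-kB had a median of -0.10 over 32 tested genes, with 1 higher and 6 lower at an unadjusted p under 0.05, against 4.36% and 5.31% of all tested genes, and 12 above 0. The lower count was 3 without knockout replicate 2 and 10 without knockout replicate 3. The chemokine gene Ccl9 measured 489.6, 374 and 500.0 CPM against 608, 1048 and 896 CPM (log2 fold change -0.90, adjusted p = 0.0649 in edgeR and 3.67e-05 in DESeq2, with a range of 8.73e-11 to 1 over the alternative fits). The interleukin-1 receptor antagonist gene Il1rn measured 141, 112 and 150.0 CPM against 195, 200.4 and 193 CPM (-0.55, adjusted p = 0.0937). The type 2 cytokine genes Il13 (9.31, 6.50 and 11.4 CPM against 20.3, 14.03 and 13.8 CPM) and Il4 (55.0, 40.7 and 60.1 CPM against 65.7, 75.01 and 63.1 CPM) were also without overlap. Their log2 fold changes were -0.83 (adjusted p = 0.182) and -0.39 (adjusted p = 0.401). The list's median was 0.01 without knockout replicates 1 and 2 and 0.02 without control replicate 1.

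Among 30 eosinophil granule and surface genes the median was -0.18, with 0 higher and 6 lower at an unadjusted p under 0.05, against 4.36% and 5.31% of all tested genes. The lower count was 3 without knockout replicate 2 and 12 without knockout replicate 3. The lower values were in surface and lineage genes. The integrin gene Itgam measured 374, 327 and 409.6 CPM against 487, 693 and 578 CPM (log2 fold change -0.66, adjusted p = 0.0814). The eotaxin receptor gene Ccr3 measured 786, 633 and 927 CPM against 948, 1118 and 1237 CPM (-0.49, adjusted p = 0.251), and the prostaglandin receptor gene Ptger4 had -0.51 (adjusted p = 0.167). Siglecf (-0.25), Gata1 (-0.30) and Il5ra (-0.24) were the other ones. In all 6 genes knockout replicate 2 was the lowest library, the same that held the most red cell RNA. The granule genes did not share this, as the peroxidase gene Epx measured 5353, 5445 and 5223 CPM against 5642, 3771 and 3982 CPM (0.26) and the major basic protein gene Prg2 had 0.15, both with overlap. Without knockout replicates 1 and 2 the list's median was -0.02.

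Of 36 cell death and survival genes, 1 was higher and 6 were lower at an unadjusted p under 0.05, against 4.36% and 5.31% of all tested genes. The median was -0.04, and 3 were lower without knockout replicate 2. The lowest p values were in the survival genes Bcl2a1d (-1.06, adjusted p = 0.0937), Bcl2a1b (-0.78, adjusted p = 0.223) and Bcl2a1a (-0.51, adjusted p = 0.249), near-identical copies that share reads. Bcl2a1d measured 18.7, 11.2 and 20.8 CPM against 26.5, 46.1 and 33.2 CPM, with no overlap.

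**Figure D5:**
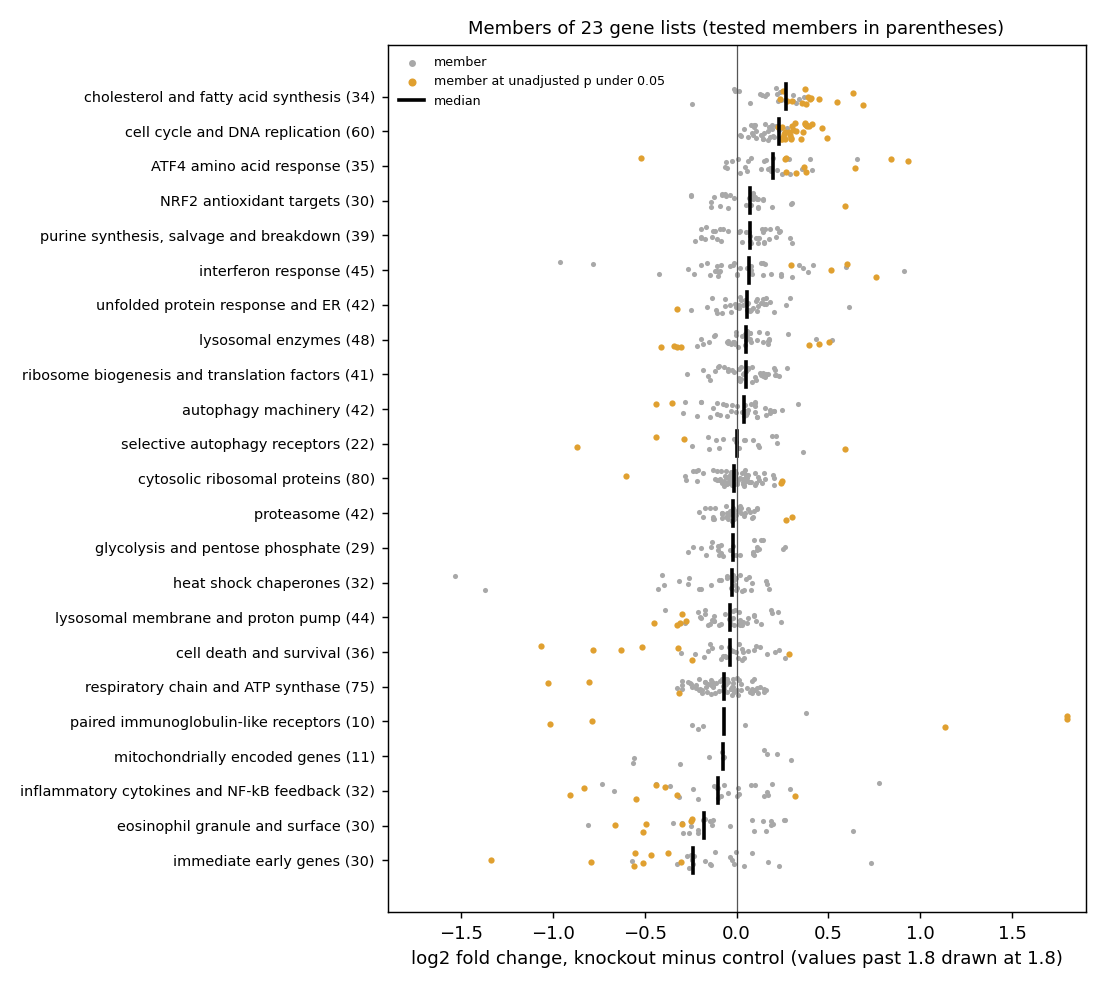
Log2 fold change of knockout over control (horizontal axis) of every tested member of 23 of the 24 gene lists, 1 point per gene, with members at an unadjusted p under 0.05 in another colour and each list's median as a bar. Values past 1.8 are drawn at 1.8. The cell cycle (0.23) and cholesterol (0.27) lists have the highest medians and the immediate early genes (-0.24) the lowest.

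DESeq2, which called more genes in all, passed some of the list members that edgeR left uncalled. These were Sqle, Srebf2 and Fads2 on the higher side of the cholesterol list, Ddit4 of the ATF4 list, and on the lower side Ccl9, Il13 and Il1rn of the inflammatory list, Itgam, Ccr3 and Ptger4 of the eosinophil list, Zfp36l1 and Dusp6 of the immediate early list, Bcl2a1b and Bcl2a1d of the cell death list, and Atg5, Sec62 and Atp6v1d, as well as the red cell marker Klf1 and the platelet marker Ppbp on the higher side. By limma-voom 0 of these passed.

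The other lists described here had medians between -0.07 and 0.08. Of the 80 genes of cytosolic ribosomal proteins, 2 were higher (Rpl12 and Rps2) and 1 lower (Rpl23a) at an unadjusted p under 0.05, with a median of -0.01. These shares of 2.5% and 1.25% are under the 4.36% and 5.31% of all tested genes. The 11 tested mitochondrially encoded genes (-0.07), 29 genes of glycolysis and the pentose phosphate path (-0.02), 39 purine genes (0.07), 41 genes of ribosome biogenesis and translation (0.05) and 32 heat shock chaperones (-0.02) had none at that threshold. Leaving out control replicate 1 gave 1 higher and 2 lower mitochondrially encoded genes, 4 and 0 for glycolysis and 3 and 1 for purine genes. It gave 6 higher and 1 lower in each of the ribosome biogenesis and heat shock lists. Among 42 proteasome genes (-0.02) the subunits Psmd1 (0.30) and Psmd6 (0.27) were higher, among 42 genes of the unfolded protein response (0.05) Dnajb9 was lower (-0.33), and among 30 NRF2 targets (0.07) Gstm5 was higher (0.59), which is 4.76%, 2.38% and 3.33% of these lists. The unfolded protein response list had 9 higher and 0 lower without control replicate 1, and 4 higher and 2 lower without knockout replicate 3. The antioxidant core TGANNNNGC stood in 18 of 25 NRF2 windows (72.0%), in 12174 of all 27025 and in 48.0% of those of tested genes. TGACTCA, read by AP-1, stood in 5 of 25, in 5.95% of all and in 4.51% of those of tested genes. Of 45 interferon response genes 4 were higher and 0 lower, against 4.36% and 5.31% of all tested genes (median 0.07, and -0.03 without control replicate 1), namely Ifi27l2a, which was called, Isg20, Oas1a (0.52, adjusted p = 0.370) and Ifi27 (0.30, adjusted p = 0.448). The interferon counts were 4 higher and 4 lower without control replicate 1, and 1 higher and 1 lower without knockout replicate 2. The 24 arginine and polyamine genes had a median of 0.08. The 10 tested paired immunoglobulin-like receptors had a median of -0.07 with 2 called in each direction, against 0.145% of all tested genes called higher and 0.203% called lower.

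Among genes that differed at an unadjusted p under 0.05 without being called, the most abundant protein-coding ones were taken in each direction from those without overlap between the groups. The 5 on the lower side were Actb, Tmsb4x, Pfn1, Gapt and Cdc42, of which Actb, Pfn1, Cdc42 and Tmsb4x encode actin or proteins that control it. Actb measured 10124, 9459.9 and 11092 CPM against 12325, 14287 and 11579 CPM (log2 fold change -0.32, adjusted p = 0.394). Tmsb4x (-0.27, adjusted p = 0.507), Pfn1 (-0.27, adjusted p = 0.514), Cdc42 (-0.28, adjusted p = 0.415) and the adaptor gene Gapt (-0.32, adjusted p = 0.415) were similar in size. On the higher side were the aldehyde dehydrogenase gene Aldh2 (0.27, adjusted p = 0.418), the ribosomal protein genes Rpl12 (0.24, adjusted p = 0.495) and Rps2 (0.25, adjusted p = 0.498), Mki67 and the topoisomerase gene Top2a (0.37, adjusted p = 0.350). Aldh2 measured 1032, 1055 and 1088 CPM against 913, 799 and 919 CPM.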

How the data were processed

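Poly(A) RNA from 12 eosinophil samples was sequenced by the authors as 100-base single-end reads and aligned with HISAT2 2.2.1, per the methods. The deposited table holds raw counts per gene, which the authors made with featureCounts 2.0.1. Its header names Ensembl release 92 on GRCm38, whereas the methods name GRCm39, and coordinates here are the table's own. The header's command carries the option for paired reads, although the methods give single-end reads, and it names no strand option, so that reads of a gene and of an overlapping antisense gene cannot be told apart in these counts. No value column was left unmapped (0 columns). The counts were analysed with edgeR 4.0.16 in R 4.3.3: genes kept by filterByExpr (minimum count 10, total 15), TMM scaling, glmQLFTest on the 6 bone marrow libraries, prior count 0.125, and Benjamini-Hochberg adjustment over all 13781 genes, two-sided. The fit was tested on simulated data. DESeq2 1.42.0, limma-voom 3.58.1, other scalings, other filters, a replicate block, all 12 libraries and left-out libraries were alternatives. Replicate libraries of a group differed beyond sampling noise (chi-square per degree of freedom 16.8 to 49.3), and p-values measure the spread between these libraries, 3 per group.

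Named genes were Atg5, every gene at an adjusted p under 0.05 (those within a log2 fold change of 2 with values, the 12 protein-coding ones with the lowest p in every library), the 3 members of each list with the lowest p, and the 5 most abundant protein-coding genes in each direction at an unadjusted p under 0.05 that were not called and did not overlap. The genes, the 24 gene lists and the 11 marker lists were chosen with earlier results of these data known, and lists are described by counts and medians without a test. Some names of listed genes are older symbols, and 16 of 1098 list entries found no match. The promoter elements for ATF4, NF-Y, cell cycle and sterol regulation were added after seeing the data, as was the fit without knockout replicates 1 and 2. Samples with the same replicate number did not deviate together, so the numbers were not used to pair the samples. Some called genes covered by this rule and the members of 1 gene list are not reported here.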

Additional observations from a re-analysis of the deposited data

Results flagged for a closer look

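In Ptger4, a prostaglandin E2 receptor gene, every knockout library was under every control library in bone marrow (log2 fold change -0.51) and every knockout library was above every control library in blood (log2 fold change 0.56). The test of the difference between the tissues gave an unadjusted p of 0.000305 and an adjusted p of 0.740 in edgeR over 14712 genes. In Egr1, an immediate early transcription factor gene, the log2 fold change was -0.56 in bone marrow and 1.66 in blood, again without overlap in either tissue (unadjusted p = 0.00214, adjusted p = 0.852 in edgeR). Neither difference passed the adjustment.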

How the results depend on the processing

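No called gene changed sign in any alternative. Counts rose to 58 higher and 135 lower with DESeq2 and to 161 and 259 without the filter on low counts, and fell to 7 and 5 with all 12 libraries in the fit and to 6 and 1 without knockout replicates 1 and 2. They ranged from 9 to 79 and from 9 to 140 when 1 library was left out. Of the 48 called genes, 48 were kept without control replicate 1, 38 without control 2, 17 without control 3, 19 without knockout 1, 23 without knockout 2 and 27 without knockout 3, against 47 with DESeq2, 46 with limma-voom, 48 with other scalings and 12 with 12 libraries. At an unadjusted p under 0.05 the counts were 139 higher and 191 lower with 12 libraries, 991 and 1156 without the filter, and 138 and 141 without knockout replicates 1 and 2, with ranges of 252 to 1298 and 369 to 1323 over left-out libraries. Past a log2 fold change of 2 there were 40 and 16 without the filter, 1 lower with 12 libraries and 1 lower without both knockout libraries, with ranges of 6 to 16 and 2 to 11. Genes without overlap ranged from 1274 to 2588 higher and from 1281 to 2375 lower over left-out libraries, as smaller groups overlap less, with 1498 higher without the filter. The test of the difference between tissues called 14 genes with DESeq2 and 119 without the filter.

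With the replicate block 11 genes were higher and 12 lower, 22 of the 48 being kept. Same-numbered libraries had correlations of deviations of -0.18, -0.13 and 0.00060, and each library correlated better with a library of another number. With 3 libraries per group these correlations cannot show whether same-numbered samples were handled together.

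Without knockout replicates 1 and 2, list medians were 0.54 for red cell, 0.30 for platelet, 0.052 for monocyte, 0.17 for dendritic cell, -0.15 for basophil, 0.34 for B cell, 0.090 for neutrophil, 0.19 for eosinophil and 0.12 for T and natural killer cell markers, and -0.012 for autophagy, 0.012 for lysosomal enzymes, -0.024 for granule and surface, 0.090 for cell cycle, -0.082 for the unfolded protein response, 0.034 for NRF2, 0.010 for inflammatory, -0.12 for immediate early, 0.39 for cholesterol, -0.011 for purine, 0.0075 for arginine, -0.061 for ribosome biogenesis, -0.15 for respiratory chain, -0.095 for proteasome, 0.048 for glycolysis, 0.016 for interferon, -0.039 for ribosomal protein, -0.063 for lysosomal membrane, 0.022 for autophagy receptor, 0.17 for paired receptor and 0.011 for cell death genes. The other lists kept their sign and moved by less than 1.5 times. With 12 libraries and with library size alone, autophagy had 0.072 and 0.074, lysosomal enzymes 0.082 and 0.082, autophagy receptors 0.034 and 0.035, lysosomal membrane -0.0056 and -0.0044, cell death -0.0065 and -0.0056, ribosomal protein 0.015 and 0.016, proteasome 0.013 and 0.015, glycolysis 0.0083 and 0.010 and heat shock genes 0.0034 and 0.0065, while the median of all tested genes was 0.032 and 0.034 in these fits. With 12 libraries the paired receptors had 0.073 and basophil markers -0.015. Stroma markers had 0.25 without the filter and 0.23 with the block. Over left-out libraries the medians ranged from 0.67 to 1.66 for red cell, -0.25 to 0.14 for T and natural killer cell, 0.0031 to 0.16 for monocyte, 0.029 to 0.15 for dendritic cell and 0.10 to 0.32 for stroma markers, and from 0.0017 to 0.039 for autophagy, 0.016 to 0.063 for lysosomal enzymes, -0.28 to -0.087 for granule and surface, 0.12 to 0.36 for ATF4, 0.034 to 0.063 for NRF2, -0.15 to 0.019 for inflammatory, 0.022 to 0.095 for purine, 0.044 to 0.11 for arginine and -0.074 to -0.034 for cell death genes. They also ranged from -0.26 to 0.059 for neutrophil, -0.21 to 0.22 for B cell, 0.066 to 0.21 for eosinophil and -0.043 to 0.094 for basophil markers, and from -0.13 to 0.025 for respiratory chain, -0.15 to 0.023 for mitochondrially encoded, -0.078 to 0.067 for ribosomal protein, -0.089 to 0.12 for heat shock, -0.0023 to 0.14 for unfolded protein response, -0.030 to 0.14 for interferon, -0.078 to 0.023 for proteasome, -0.047 to 0.021 for glycolysis, -0.025 to 0.017 for autophagy receptor, -0.18 to 0.18 for paired receptor, -0.090 to -0.038 for lysosomal membrane, 0.017 to 0.099 for ribosome biogenesis and -0.29 to -0.15 for immediate early genes. The cause of these shifts was not tested. Eps8l1 and Gm47917, with 3 counts in a group, are limited by depth.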

Other observations

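Among genes that were not called, 18 had a log2 fold change past 2 at an unadjusted p under 0.05. The others beside Slfn14 and Ermap, which had the lowest p, included pseudogenes, long noncoding RNAs and protein-coding genes such as Cfap54 and Cacna1g. Slfn14 measured 1.67, 5.82 and 1.89 CPM in the knockout and 0.601, 0.556 and 0.439 CPM in the control libraries (log2 fold change 2.55, adjusted p = 0.0559 in edgeR). Ermap measured 6.90, 18.6 and 6.20 CPM against 1.87, 3.25 and 2.86 CPM (2.003, adjusted p = 0.0595). Ermap encodes an erythroid membrane protein. In Slfn14 and Ermap knockout replicate 2, which held the most red cell RNA, was the highest library and all knockout libraries were above all controls, as was the level of the red cell list, and the part of red cell RNA in these values was not tested. In blood the red cell markers had a median log2 fold change of -3.39, opposite in sign to the marrow value, and -0.86 without blood control replicate 1.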
